A study of Rattus norvegicus with 4 samples.

Results

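The genes described here, 10 of the 26633 genes and transcripts on the array, carry long-chain fatty acids into the muscle fibre and oxidise them in its mitochondria: Cd36, Fabp3, Cpt1b, Slc25a20, Cpt2, Acadvl, Acadl, Acadm, Hadha and Hadhb. They were taken by name, through the accession of each probe. All 10 were on the array, with 13 probes in all (7 genes with 1 probe and 3 with 2), and all 10 were well above background on every array. RNA of the soleus, a calf muscle rich in slow fibres, from male rats was measured on 4 one-colour Agilent arrays, 1 for each group. Regenerated overloaded muscle came from rats aged 18 weeks and had regenerated and then been overloaded. Overloaded muscle, labelled as hypertrophied, came from rats of the same 18 weeks without a regeneration label. Regenerated muscle, from rats at 16 weeks of age, was taken 8 weeks after an injection given as CTX, letters that the labels do not expand. Normal muscle also came from rats aged 16 weeks. The titles end in L for both regenerated groups and in R for the other 2, letters that are not expanded, so 2 groups of equal age may or may not share their rats. Not stated are the way of overloading, its length, and how long after the injection the regenerated overloaded muscle was taken. RNA of 6 muscles was mixed for each array, so every group has n = 1, no difference has a replicate check, and no test between groups was possible. Age and the row of the slide go with overload and cannot be told apart from it.

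Fatty acids cross the fibre membrane with the help of the scavenger receptor CD36 and travel through the cytosol on the binding protein FABP3. After activation to acyl-CoA they enter the mitochondrion by the carnitine shuttle, in which CPT1B makes acylcarnitine at the outer membrane, the carrier SLC25A20 moves it across the inner membrane, and CPT2 turns it back into acyl-CoA. Beta-oxidation then shortens the chain in rounds, which begin with the acyl-CoA dehydrogenases for very long, long and medium chains (ACADVL, ACADL and ACADM) and, for long chains, end on the trifunctional protein made of the HADHA and HADHB subunits. Slow muscles such as the soleus rely on this route for sustained work.

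Hadha and Hadhb lie head to head, so that the stretch between their starts is the upstream region of both, and it is shown because both subunits of 1 enzyme complex are read from it. In RefSeq's promoter table (GRCr8, the build of that table alone) 300 bases separate the 2 starts, and 7.08% of the 27457 symbols of the table are in a head-to-head pair at least as close. The plus strand of chr6:31907501-31907800 is printed with the GC box GGGCGG, read on either strand, in capitals. Hadhb begins just left of it and runs leftwards, and Hadha begins just right of it and runs rightwards.
Hadhb to Hadha: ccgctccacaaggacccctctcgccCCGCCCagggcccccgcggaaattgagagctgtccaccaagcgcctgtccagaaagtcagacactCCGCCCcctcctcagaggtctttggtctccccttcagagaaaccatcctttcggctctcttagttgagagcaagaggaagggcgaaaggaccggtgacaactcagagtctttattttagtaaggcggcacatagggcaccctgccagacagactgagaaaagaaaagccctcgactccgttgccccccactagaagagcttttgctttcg
The table held 8 of the 10 genes (not Cpt1b and Acadl). Within 250 bases before the start, GGGCGG on either strand was found in Cpt2, Hadha, Hadhb and Slc25a20, 4 of 8, against 30.5% of 33469 windows of that length in the table. The windows of Hadha and Hadhb share 200 bases, and the 1 match of Hadha is also a match of Hadhb, so the 4 are not separate. The nuclear receptor core AGGTCA on either strand was found in Acadvl, 1 of 8, against 14.1% of the windows. Also searched were TGACGT, found in Acadm and Fabp3, 2 of 8, against 6.95% of the windows, and TCAAGGTCA. The latter was in none of the 8 and in 0.388% of the windows. The direct repeat AGGTCANAGGTCA, the form to which PPAR binds as a pair with RXR and which holds AGGTCA within it, was in none of the 8 and in 0.0508% of the windows. Below, the 250 bases before Acadvl (chr10:55236706-55236955, minus strand) carry both of its AGGTCA matches in capitals, and those before Cpt2 (chr5:127910819-127911068, minus strand) its 3 GGGCGG matches. They are shown as the 2 genes with the most matches of AGGTCA (Acadvl) and of GGGCGG (Cpt2).
Acadvl: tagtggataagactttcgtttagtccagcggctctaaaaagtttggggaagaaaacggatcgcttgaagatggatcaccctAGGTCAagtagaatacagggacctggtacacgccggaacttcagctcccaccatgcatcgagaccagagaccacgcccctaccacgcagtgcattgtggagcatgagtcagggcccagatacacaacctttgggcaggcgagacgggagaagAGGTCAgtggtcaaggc
Cpt2: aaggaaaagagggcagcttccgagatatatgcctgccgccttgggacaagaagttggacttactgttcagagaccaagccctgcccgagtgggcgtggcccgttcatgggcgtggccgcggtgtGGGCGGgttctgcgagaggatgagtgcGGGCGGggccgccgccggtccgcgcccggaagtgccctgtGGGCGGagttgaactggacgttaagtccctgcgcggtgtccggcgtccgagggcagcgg
A match is a run of letters and no measured binding site.

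Between 60.4% (normal) and 70.6% (overloaded) of the spots of an array were well above background, and no spot was saturated. The median local background was 32 intensity units on both overloaded arrays, 33 on the regenerated and 44 on the normal array. Levels below are log2 of the scanner's processed signal over the array's 75th percentile, so that the level of 5.80 of Acadl in regenerated overloaded muscle is 55.6 times that percentile, and they compare 1 gene between arrays, never 2 genes. A difference is the log2 level of one group minus that of another, and its technical SE comes from repeated spots of a probe on an array. The technical SE holds no variation between rats and no error of labelling, hybridisation or scaling between arrays. All 10 genes had their highest level in normal muscle and their lowest in regenerated overloaded muscle, a placing that 30.4% of the 14862 genes above background on all arrays shared. In 9 of the 10, all but Slc25a20, the order was regenerated overloaded below overloaded below regenerated below normal, an order found in 20.6% of those genes.

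**Figure D1:**
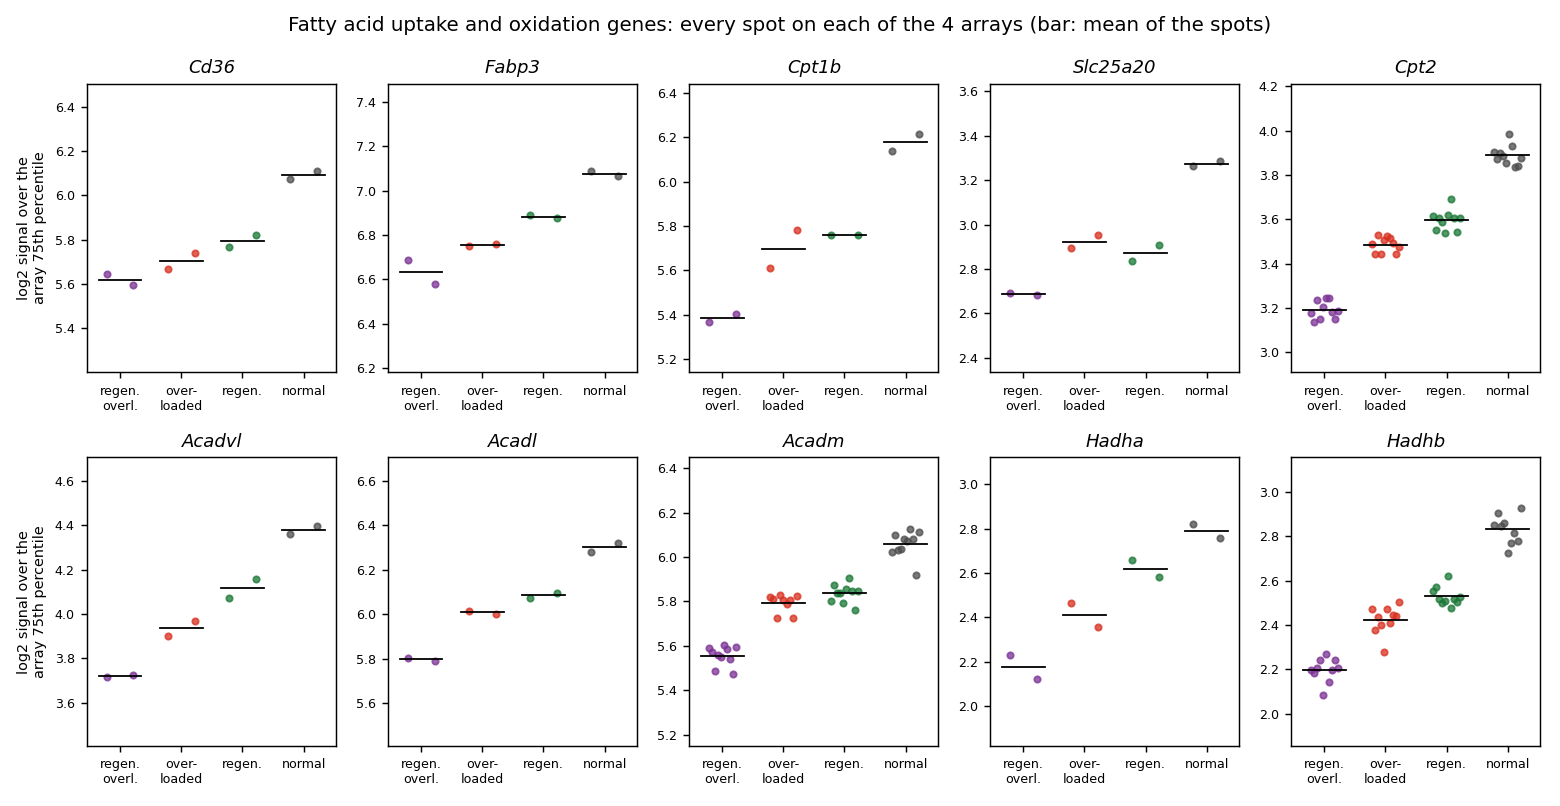
Every used spot of the 10 genes on each array (points) with the mean of the spots (bars), as log2 signal over the array's 75th percentile, for regenerated overloaded, overloaded, regenerated and normal muscle from left to right. For every gene the spots of regenerated overloaded muscle lie below and those of normal muscle above all others.

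Among the steps of the 10 genes, uptake and carriage, here Cd36 and Fabp3 alone, had the smallest mean difference of regenerated overloaded muscle from each other group. Cd36, the membrane fatty acid receptor, had a level of 5.62 in regenerated overloaded, 5.70 in overloaded and 5.79 in regenerated muscle, against 6.09 in normal muscle. Neither overloaded and regenerated muscle (-0.09) nor regenerated overloaded and overloaded muscle (-0.08) differed by more than 1.96 technical SE, and regenerated overloaded and regenerated muscle (-0.17, technical SE 0.052) did. Fabp3, the fatty acid carrier of the cytosol, had a level of 6.63 in regenerated overloaded, 6.76 in overloaded and 6.88 in regenerated muscle, against 7.08 in normal muscle. At this scaling each array lay apart from the next by more than 1.96 technical SE. Over the settings its difference of regenerated from normal muscle ran from -0.19 to 0.06. Against normal muscle, Cd36 was 1.39-fold lower and Fabp3 1.36-fold lower in regenerated overloaded muscle, the smallest differences of the 10. The other Cd36 probe, of 1 spot, gave -0.52 (technical SE 0.074) for this pair, -0.31 for regenerated and -0.37 for overloaded against normal muscle, and -0.15 (technical SE 0.073) for regenerated overloaded against overloaded muscle, which is past 1.96 technical SE.

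Against normal muscle, the carnitine shuttle had the largest mean difference of the 4 steps on each array. Cpt1b, the muscle form of the transferase that commits long-chain fatty acids to the mitochondrion, had a level of 5.39 in regenerated overloaded, 5.70 in overloaded and 5.76 in regenerated muscle, against 6.18 in normal muscle. Overloaded and regenerated muscle were within technical error of each other (-0.06, technical SE 0.052), and regenerated overloaded muscle lay 1.73-fold below normal muscle (-0.79, technical SE 0.053). Its other probe, of 1 spot, gave -0.95 (technical SE 0.15) for the same pair, -0.36 for regenerated and -0.58 for overloaded against normal muscle. Cpt2, the inner transferase, which has 10 spots an array, had a level of 3.19 in regenerated overloaded, 3.49 in overloaded and 3.60 in regenerated muscle, against 3.89 in normal muscle. No spot of Cpt2 overlapped between any pair of arrays, and the difference of regenerated overloaded from normal muscle was -0.70 (technical SE 0.023), or 1.62-fold. Slc25a20, the acylcarnitine carrier between the 2 transferases, had a level of 2.69 in regenerated overloaded, 2.92 in overloaded and 2.87 in regenerated muscle, against 3.28 in normal muscle. It was the one gene of the 10 with overloaded above regenerated muscle, by 0.05 (technical SE 0.055), within technical error.

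Among the dehydrogenases, Acadvl had a level of 3.72 in regenerated overloaded, 3.94 in overloaded and 4.12 in regenerated muscle, against 4.38 in normal muscle. Acadl had a level of 5.80 in regenerated overloaded, 6.01 in overloaded and 6.08 in regenerated muscle, against 6.30 in normal muscle. Acadm, on 9 or 10 spots, had a level of 5.56 in regenerated overloaded, 5.79 in overloaded and 5.84 in regenerated muscle, against 6.06 in normal muscle. The very-long-chain enzyme had the larger difference between regenerated overloaded and normal muscle, -0.66 (technical SE 0.052), against -0.51 (technical SE 0.053) for Acadl and -0.50 (technical SE 0.024) for Acadm. Acadl and Acadm did not differ between overloaded and regenerated muscle beyond 1.96 technical SE (-0.08 and -0.04), and Acadvl did (-0.18).

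The subunits of the trifunctional protein had nearly equal differences in most comparisons. Hadha, the subunit with the hydratase and dehydrogenase activities, had a level of 2.18 in regenerated overloaded, 2.41 in overloaded and 2.62 in regenerated muscle, against 2.79 in normal muscle. Hadhb, the thiolase subunit, had a level of 2.20 in regenerated overloaded, 2.42 in overloaded and 2.53 in regenerated muscle, against 2.83 in normal muscle. The differences of regenerated overloaded from normal muscle were -0.61 for Hadha and -0.63 for Hadhb, apart by 0.02 with a technical SE of 0.059. Those of overloaded from normal muscle were -0.38 and -0.41, apart by 0.03 (technical SE 0.059). Regenerated muscle was where they parted, at -0.17 for Hadha and -0.30 for Hadhb relative to normal muscle, a gap of 0.13 with a technical SE of 0.061. Between regenerated overloaded and regenerated muscle the gap was -0.11 (technical SE 0.060), within 1.96 technical SE. The other Hadha probe, of 1 spot, gave -0.17 for regenerated against normal muscle, -0.33 for regenerated overloaded against regenerated muscle, the same as Hadhb, and -0.05 (technical SE 0.078) in place of -0.24 between regenerated overloaded and overloaded muscle.

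Regenerated set against normal muscle asks how far these genes differed 8 weeks after injection. All 10 genes were lower in regenerated muscle, between -0.42 (Cpt1b) and -0.17 (Hadha), with a median of -0.28. Of the 14918 genes above background on both arrays, 66.3% were lower too, and their median was -0.11. Among genes as bright as the 10 (2362 genes), the median was -0.19. None of the 10 reached 1.5-fold lower, which 2.49% of all genes did. The spots of all 10 lay below those of normal muscle without overlap, as did those of 46.1% of genes with at least 2 spots. Cpt1b (1.34-fold) and Slc25a20 (1.32-fold) stood lowest, and 6.41% of all genes lay further down than Cpt1b. Under cyclic loess scaling the median of the 10 was -0.07, where that of all genes was -0.04, and Acadl (0.02), Acadm (0.01) and Fabp3 (0.06) turned positive. Under quantile scaling all genes had a median of -0.06, and that of the 10 was -0.09 with Fabp3 at 0.03. Centring on genes of like brightness put it at -0.08, with Hadha at 0.02 and Fabp3 at 0.00. With the authors' own factors it was -0.14, and 45.2% of all genes were lower.

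**Figure D2:**
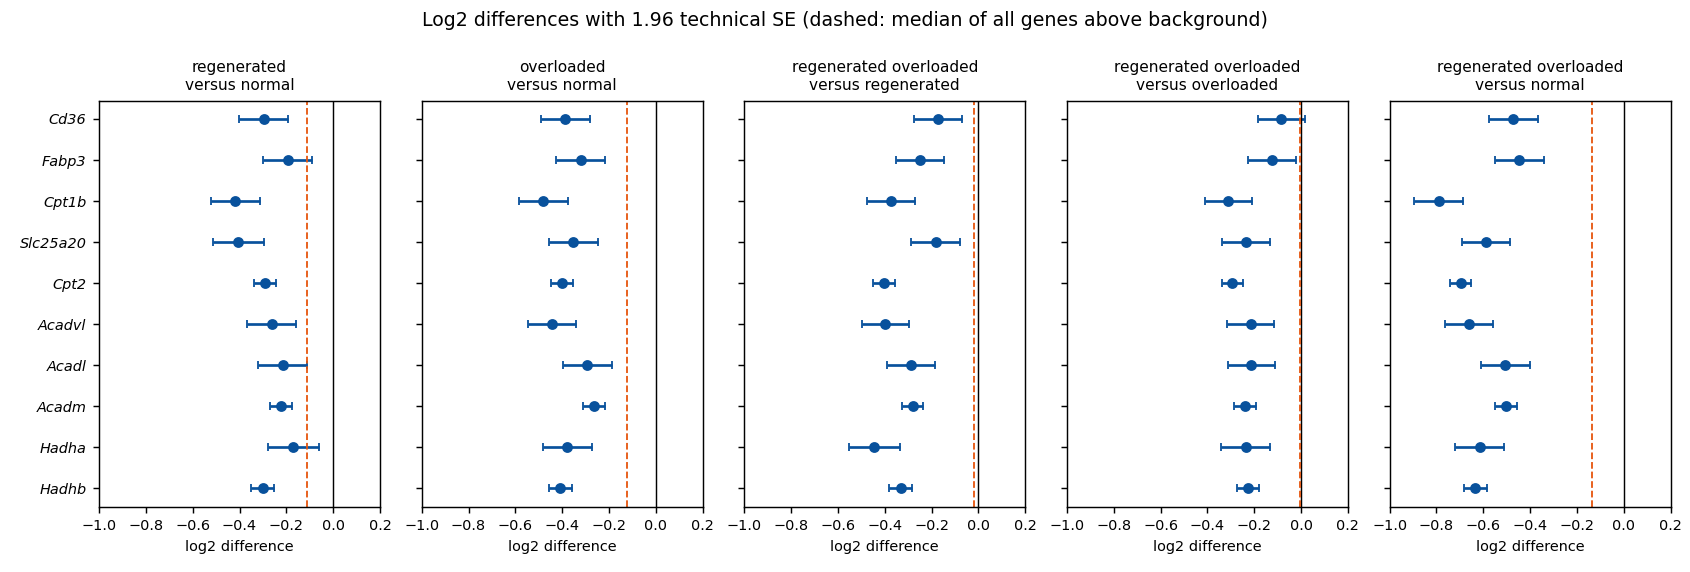
Log2 differences of the 10 genes in the 5 comparisons, in the order of the route from uptake to the trifunctional protein, with bars of 1.96 technical SE; the dashed line is the median over the whole array of genes above background in that pair. Every point is below 0, and in the pairs without normal muscle the dashed line is at -0.02 and -0.01.

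Overloaded set against normal muscle asks how these genes differed under load in muscle without a regeneration label. All 10 genes were lower in overloaded muscle, between -0.48 (Cpt1b, 1.40-fold) and -0.27 (Acadm, 1.20-fold), with a median of -0.38. Of all 14934 genes, 64.8% were lower and the median was -0.12, or -0.25 among genes as bright as the 10. None of the 10 was 1.5-fold lower, against 3.68% of all genes. No spots overlapped for any of the 10, nor for 46.4% of genes with at least 2 spots. Acadvl (-0.44), Hadhb (-0.41) and Cpt2 (-0.40) followed Cpt1b, and between 7.38% (Cpt1b) and 28.6% (Acadm) of all genes lay further down. Under cyclic loess the median of the 10 was -0.17, where that of all genes was -0.05, and Acadl (0.02), Acadm (0.04) and Fabp3 (0.02) turned positive. Under quantile scaling all genes had a median of -0.07, and that of the 10 was -0.18 with Acadm at 0.004. With the authors' factors it was -0.20, with 42.1% of all genes lower.

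Regenerated overloaded set against regenerated muscle asks the same where regeneration came before the load. Here the background was near 0: 53.3% of 16584 genes were lower, and their median was -0.02. All 10 genes were lower after overload, between -0.44 (Hadha, 1.36-fold) and -0.17 (Cd36, 1.13-fold), with a median of -0.31 that lay between -0.32 and -0.24 over the 10 alternative settings. Cpt2 (-0.41), Acadvl (-0.40) and Cpt1b (-0.37) were next to Hadha, and Slc25a20 (-0.18) and Fabp3 (-0.25) next to Cd36. None was 1.5-fold lower, against 1.94% of all genes, and 4.81% of all genes lay further down than Hadha. The spots of all 10 lay below without overlap, as did those of 33.4% of genes with at least 2 spots.

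Regenerated overloaded set against overloaded muscle compares loaded muscle with and without a regeneration label. In regenerated overloaded muscle all 10 genes were again lower, between -0.31 (Cpt1b, 1.24-fold) and -0.08 (Cd36, 1.06-fold), with a median of -0.23 that lay between -0.26 and -0.21 over the settings. Of 16731 genes 51.2% were lower, with a median of -0.01, and 1.46% were 1.5-fold lower, none of them among the 10. Cpt1b and Cpt2 (-0.29) stood lowest, with 7.09% and 7.88% of all genes further down. The 3 dehydrogenases, both trifunctional subunits and Slc25a20 lay in a narrow band between -0.24 and -0.21. Cd36 did not differ by more than 1.96 technical SE (0.052) on its brighter probe and did on the other (-0.15, technical SE 0.073), and Fabp3 (-0.12) differed by little more. The spots of all 10 lay apart in the lower direction, against 28.8% of genes with at least 2 spots. Both arrays share the age of 18 weeks and the slide row.

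**Figure D3:**
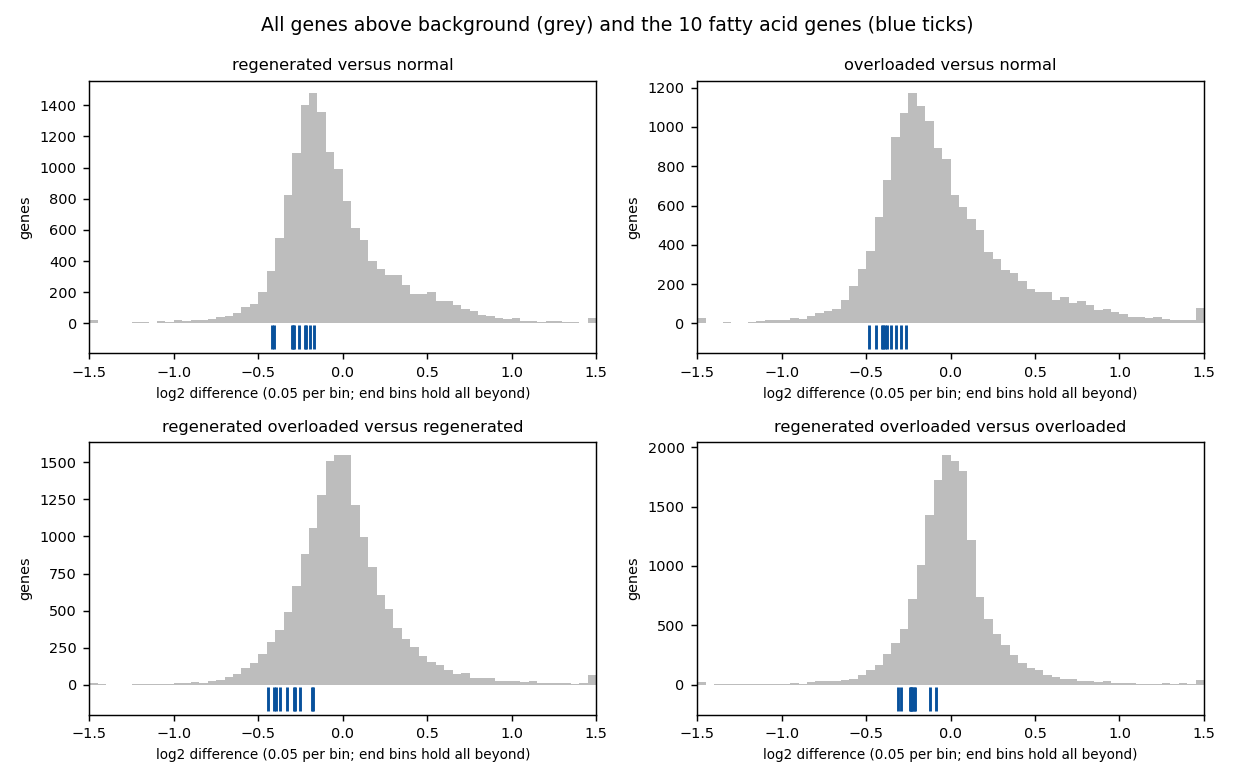
Log2 differences of the genes above background in each pair (grey, bins of 0.05, end bins holding all genes beyond) and of the 10 fatty acid genes (blue ticks) in 4 comparisons. In both comparisons with normal muscle the grey peak itself lies below 0; in the other 2 it lies at 0, with the ticks between -0.44 and -0.08.

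Regenerated overloaded set against normal muscle, a comparison added after the levels were seen, spans both changes. The 10 genes were lower by a median of -0.60, between -0.79 (Cpt1b) and -0.45 (Fabp3), against a median of -0.14 over 14877 genes, of which 64.4% were lower. Among genes as bright as the 10, the median was -0.24. Past 1.5-fold lower were 6 of the 10: Cpt1b (1.73-fold), Cpt2 (1.62-fold), Acadvl (1.58-fold), Hadhb (1.55-fold), Hadha (1.53-fold) and Slc25a20 (1.503-fold), against 8.93% of all genes. None reached 2-fold, which 1.3% of all genes did. The spots of all 10 lay below those of normal muscle without overlap, against 49.4% of genes with at least 2 spots. The call at 1.5-fold rests on the scaling: 1 of the 10 passed with the authors' factors or after centring on all genes, and none with quantile, cyclic loess or centring on genes of like brightness, while all 10 stayed below 0 in each of these. By step of the route, the mean difference was -0.46 for uptake and carriage (2 genes), -0.69 for the carnitine shuttle (3), -0.56 for the dehydrogenases (3) and -0.62 for the trifunctional protein (2). The SD over the 10 genes was 0.11, against 0.51 over all genes. The SD over the 10 was between 0.07 and 0.09 in the other 4 comparisons.

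Subtracting the overload difference of muscle without a regeneration label from that of regenerated muscle asks whether the 2 overload differences were alike. Age and the slide row go with overload in both. The result was within 1.96 technical SE of 0 for the 3 dehydrogenases, Cpt2, Fabp3, Hadha (-0.07, technical SE 0.077) and Cpt1b (0.11, technical SE 0.074). It was beyond that for Cd36 (0.21, technical SE 0.074), Slc25a20 (0.17, technical SE 0.076) and Hadhb (0.07, technical SE 0.035). At this scaling each had the smaller overload difference in regenerated muscle. The lowest values over the settings were 0.002 for Cd36 (with cyclic loess), -0.03 for Slc25a20 and -0.13 for Hadhb. Genes as bright as the 10 had a median of 0.20, so only Cd36 was not below them. Of the 10, 7 were above 0, as were 62.9% of 14862 genes, and 3 below it, as were 37.1%. Their median of 0.06 was close to that of all genes, 0.08. The median turned to -0.14 under quantile and cyclic loess scaling and to -0.08 with the authors' factors, so its direction is not settled. None of the 10 reached 1.5-fold in either direction, which 3.20% of all genes did on the lower and 1.88% on the higher side.

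**Figure D4:**
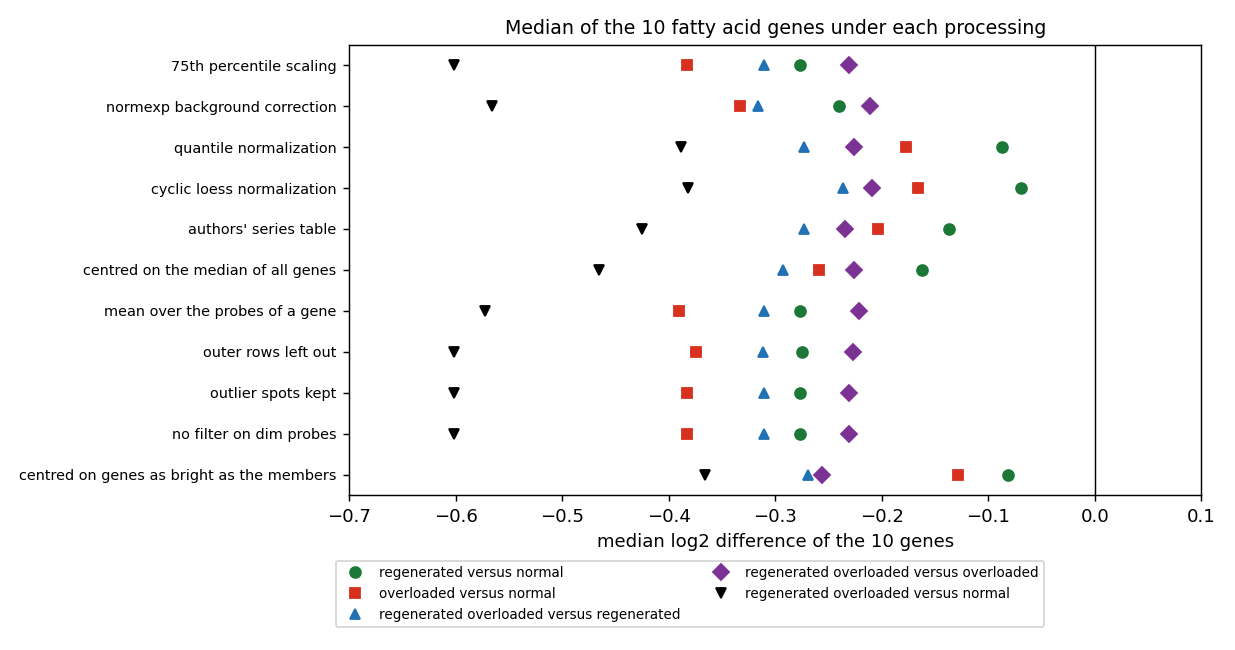
Median log2 difference of the 10 genes in 5 comparisons (symbols) under 75th percentile scaling and 10 other settings. Medians stay below 0 in each; those against normal muscle spread from -0.28 to -0.07 (regenerated) and from -0.39 to -0.13 (overloaded), and those without normal muscle from -0.32 to -0.24 (against regenerated) and from -0.26 to -0.21 (against overloaded).

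Other genes of mitochondrial beta-oxidation lay with the 10. This list, like those that follow, was written with earlier results of these arrays known. Of 12 such genes, all 12 were lower in regenerated overloaded than in normal muscle, with a median of -0.45, where 64.4% of all genes were lower. All 12 were also lower in overloaded than in normal muscle (median -0.28, against 64.8% of all genes) and in regenerated than in normal muscle (median -0.19, against 66.3%). With cyclic loess these counts were 11 (Hadh at 0.03), 8 and 4 of 12, so the direction of most of them in regenerated muscle rests on the scaling. In regenerated overloaded against overloaded muscle 10 of 12 were lower (median -0.19), against 51.2% of all genes, and 10 with cyclic loess. Acaa2, the thiolase of medium chains, was at -0.59 and Decr1, the reductase for unsaturated chains, at -0.52 between regenerated overloaded and normal muscle, and Hadh, the short-chain dehydrogenase, at -0.31 was the least. Acad9, a dehydrogenase that also helps to assemble complex I, had another pattern: its levels of 2.33 in regenerated overloaded, 2.19 in overloaded and 2.47 in regenerated muscle were all far below the 3.35 of normal muscle. It was 2.23-fold lower in overloaded and 1.84-fold lower in regenerated muscle, and the 2 overloaded groups differed by 0.15 the other way.

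Uptake and activation genes beyond the 10 went both ways. Of 15, 7 were lower and 8 higher in regenerated overloaded than in normal muscle, with a median of 0.07; 6 were 1.5-fold lower, against 8.93% of all genes, and 2 were 1.5-fold higher, against 10.9%. Lpl, the lipase that frees fatty acids at the capillary wall, had a level of 2.61 in regenerated overloaded, 3.02 in overloaded and 3.14 in regenerated muscle, against 3.54 in normal muscle, the same order as most of the 10, and was 1.90-fold lower at its lowest. Crat (carnitine acetyltransferase, -0.79), Slc22a5 (the carnitine transporter, -0.82), Slc27a1 (the fatty acid transport protein of muscle, -0.70), Acsl1 (the main acyl-CoA synthetase of muscle, -0.70) and Acsl6 (-0.69) were the other 5. With the authors' factors 3 of the 6 stayed past 1.5-fold (Lpl, Crat and Slc22a5), and Crat was at -0.47 with cyclic loess and Slc22a5 at -0.47 with normexp background correction. The higher ones were Acsl3 (0.73) and Acsl5 (0.71), synthetases also found outside muscle fibres, at 0.53 and 0.57 with normexp. Cpt1a, the liver-type transferase, was at 0.14, or 0.02 with normexp (0.29 in regenerated and 0.24 in overloaded against normal muscle), where Cpt1b was at -0.79.

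Of the regulators and PPAR targets, 19 of 20 were above background on both arrays of each pair. In regenerated overloaded against normal muscle 12 were 1.5-fold lower and 1 was 1.5-fold higher, with a median of -0.62, where 8.93% and 10.9% of all genes were. With the authors' factors 4 of the 12 stayed past 1.5-fold (Ppara, Ppargc1a, Acacb and Prkaa2), and 6 genes of the list were past it with normexp and 9 with cyclic loess. Ppargc1a, the coactivator PGC-1alpha that drives mitochondrial genes, had a level of -4.17 in regenerated overloaded, -3.88 in overloaded and -3.06 in regenerated muscle, against -2.59 in normal muscle. It was 2.98-fold lower in regenerated overloaded and 2.44-fold lower in overloaded than in normal muscle (technical SE 0.25 and 0.24 on the log2 scale), and 2.16-fold lower in regenerated overloaded than in regenerated muscle; normexp put these log2 differences at -0.99, -0.93 and -0.61. Ppara, the receptor that switches on fatty acid oxidation genes, was at -0.92 in regenerated overloaded against normal muscle (-0.62 with normexp), Prkaa2, a catalytic subunit of AMP-activated kinase, at -0.83, and Acacb, which makes the malonyl-CoA that inhibits CPT1B, at -0.82 (-0.56 with normexp). Mlycd, which removes malonyl-CoA, was at -0.75, or -0.58 with the authors' factors and -0.52 with cyclic loess. Esrra, the receptor ERR-alpha, was at -0.62, or -0.44 with the authors' factors. Angptl4, a PPAR target that inhibits lipoprotein lipase, was at -0.77 in regenerated overloaded against regenerated muscle. Ucp2, an uncoupling protein abundant in immune cells, was the higher one (0.76, or 0.27 with normexp), and Pparg, the receptor of adipocytes, was 0.79 higher in regenerated than in normal muscle.

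Of 9 peroxisomal genes, 8 were lower in regenerated overloaded than in normal muscle, with a median of -0.29, against 64.4% of all genes, or 6 with cyclic loess and with the authors' factors, where Scp2 and Abcd3 turned positive. In regenerated overloaded muscle 6 were lower than in regenerated muscle (median -0.07), against 53.3% of all genes, and 7 lower than in overloaded muscle (median -0.04), against 51.2%. Abcd2, a peroxisomal transporter of very-long-chain acyl-CoA, was the lowest at -0.68. Of 9 measured genes of lipid stores, all 9 were lower in regenerated overloaded than in normal muscle (median -0.55), against 64.4% of all genes. With the authors' factors 6 were lower (Plin2, G0s2 and Abhd5 turned positive), and with cyclic loess 7. Dgat2, which makes triglyceride, was 2.32-fold lower there and 2.09-fold lower than in regenerated muscle, and Plin5, which ties lipid droplets to mitochondria, was 2.21-fold lower on 1 spot (-0.88 with normexp on the log2 scale, against -1.15). G0s2, the inhibitor of the lipase ATGL, had a level of 5.95 in regenerated overloaded, 6.29 in overloaded and 4.99 in regenerated muscle, against 6.03 in normal muscle. It was low in regenerated muscle alone, 2.06-fold below normal muscle.

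**Figure D5:**
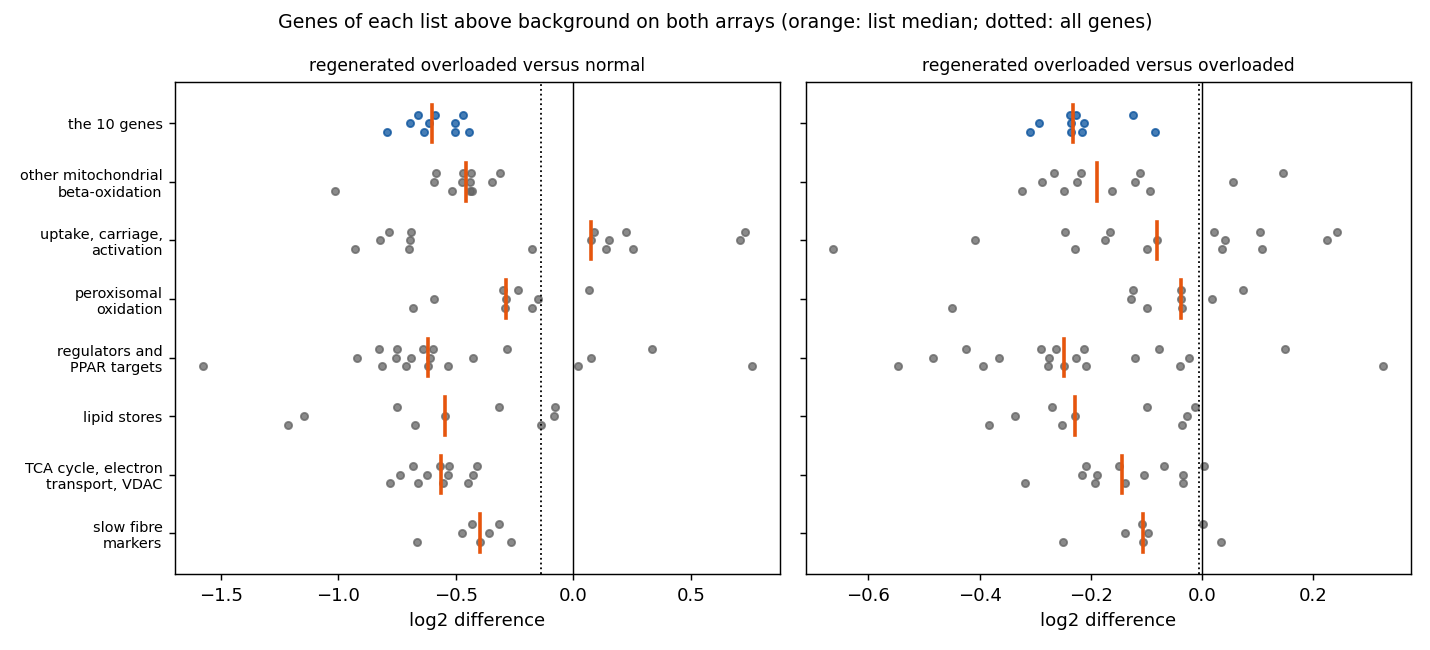
Log2 differences of every measured gene of 8 lists for regenerated overloaded against normal muscle (left) and against overloaded muscle (right), with the list median in orange and the median of all genes dotted. The 10 genes (blue) have medians of -0.60 and -0.23, and the list of 12 TCA cycle, electron transport and VDAC genes has -0.56 and -0.14.

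Other mitochondrial genes were lower too. A list of 12 genes covered the TCA cycle, the electron transport chain and the outer membrane channel VDAC. Its medians were -0.24 in regenerated and -0.42 in overloaded against normal muscle, and -0.32 in regenerated overloaded against regenerated muscle. In these pairs the 10 genes had -0.28, -0.38 and -0.31, and all genes -0.11, -0.12 and -0.02. Genes as bright as the 10 had -0.19, -0.25 and -0.04. With cyclic loess the list had -0.04, -0.18 and -0.24, and all genes -0.04, -0.05 and 0.01. At that scaling the list lay with all genes in regenerated against normal muscle. Against overloaded muscle, regenerated overloaded muscle had a median of -0.14 on this list and -0.23 on the 10 genes, a gap of -0.09 that was not tested. Cs, citrate synthase, was at -0.19 there and Idh3a, of the TCA cycle, at 0.00.

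The muscle markers checked the tissue label and differed too. All 7 slow fibre markers, among them Myh7, the slow myosin, were well above background on all arrays. Their summed level was 1859 in regenerated overloaded, 1956 in overloaded and 2058 in regenerated muscle, against 2429 times the 75th percentile in normal muscle. Their median difference in regenerated overloaded against normal muscle was -0.40, with 7 of 7 lower, where 64.4% of all genes were lower. With cyclic loess that median was 0.004, with 3 of 7 lower. It was then 0.07 in overloaded (1 of 7 lower) and 0.03 in regenerated muscle (2 of 7 lower). The direction of the slow fibre markers against normal muscle thus rests on the scaling. The 7 fast fibre markers on the array summed to 184 in regenerated overloaded, 189 in overloaded and 222 in regenerated muscle, against 344 in normal muscle. They did not go one way: Myh1, a fast myosin, was 0.58 higher in regenerated overloaded than in normal muscle and 2.30 higher than in overloaded muscle, and Myh4, another, was 1.39 higher in overloaded and 1.15 higher in regenerated than in normal muscle. Summed markers of other cells were higher than in normal muscle on all 3 other arrays, though not every marker was. The 5 fibroblast markers summed to 207 in regenerated overloaded, 164 in overloaded and 121 in regenerated muscle, against 59.6 in normal muscle, and the 5 macrophage markers to 5.02, 4.61 and 4.31, against 2.59. The adipocyte markers on the array (5 of 6 listed, 4 of them above background and Lep below it on every array) summed to 23.1, 16.1 and 24.4, against 11.2 in normal muscle, and the 7 endothelial markers (6 above background in normal muscle) to 13.6, 13.7 and 13.1, against 12.6. Lower in regenerated overloaded than in normal muscle were 0 of 5 fibroblast markers, 1 of 5 macrophage markers (Itgam, -0.57), 1 of 4 adipocyte markers (Cidec, -0.09) and 2 of the 6 endothelial markers above background in both (Cdh5, -0.50, and Kdr, -0.12). Of all genes, 64.4% were lower in this pair. The endothelial count was 3 with normexp and 1 with cyclic loess, and the adipocyte count was 0 with the authors' factors. In overloaded against normal muscle the adipocyte markers were split, although their sum was higher. There 2 of 4 were lower (Cidec, -0.84, and Adipoq) and 2 higher (Cfd and Retn), where 64.8% of all genes were lower. In such mixed tissue fewer fibres and less RNA per fibre cannot be told apart, and the part of these cells in the lower levels of the 10 genes was not tested.

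The genes whose profile lay nearest to the median profile of the 10 (-0.60, -0.38 and -0.28 for regenerated overloaded, overloaded and regenerated against normal muscle) were Mrpl3, a mitochondrial ribosomal protein, Atl2, an atlastin of the endoplasmic reticulum, Noa1, a GTPase of the mitochondrion, Prkab1, a regulatory subunit of AMP-activated kinase, and Ndufb10, a subunit of complex I. Their root mean square distance over these 3 differences was between 0.006 and 0.018 log2 units, among 9176 genes above background on all 4 arrays with at least 2 spots. All but Atl2 (9 spots) were read from 2 spots. For Acadl, also on 2 spots, the technical SE of such a difference was 0.053, so which genes lie nearest is not settled. The 10 genes themselves lay between 0.027 (Hadhb) and 0.147 (Cpt1b) from that profile.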

How the data were processed

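Processed signals of 4 one-colour arrays, 1 per group, were used. Per the file headers, the authors' scanner software (Feature Extraction 11.5.1.1; the submitters' processing notes name Agilent Feature Extraction 10.10.1.1) gave each spot a background-subtracted, spatially detrended intensity. The deposited files also hold, as other values, a flag each for outlying, saturated and well-above-background spots. The authors' deposited series table holds intensities equal to the processed signal times 1 constant per array (2.02 for regenerated overloaded, 1.95 for overloaded, 2.10 for regenerated and 2.14 for normal muscle), on a linear scale and not centred; its basis is unknown.

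Spots flagged as outliers (406 to 451 of 58717 per array) were left out and log2 of the 75th percentile was subtracted on each array. Repeated spots were averaged; the brightest probe stood for its gene. Of 30367 probes, 18643 matched 15637 symbols by accession in RefSeq's table (GRCr8, used for names; the headers place probes on rn4). Technical SEs used SDs between spots pooled in 20 bins of signal; these were tested on simulated data. Calls were made at 1.5-fold and 2-fold, with no test, since n = 1. The number of arrays limits the precision.

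The 10 genes and all lists were chosen with earlier results of these data known. Named were all 10 genes, and of each list examples of those past 1.5-fold in a comparison and of its extremes; Decr1, Cpt1a and Cs were chosen after their values were seen. Alternatives were normexp (R 4.3.3, limma 3.58.1, offset 50), quantile and cyclic loess normalization, the series table, centring, the mean over probes, spots in the outer 16 rows left out, outlier spots kept and no filter on dim probes.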

Additional observations from a re-analysis of the deposited data

How the results depend on the processing

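All medians of the 10 genes stayed below 0 in all 5 comparisons under the 10 alternatives; the settings that moved them concern scaling. In regenerated against normal muscle the median of -0.28 was -0.0872 with quantile normalization, -0.0687 with cyclic loess, -0.14 with the series table, -0.16 after centring on all genes and -0.0817 after centring on genes as bright as the 10, a setting chosen after seeing the data. In overloaded against normal muscle the median of -0.38 was -0.18, -0.17, -0.20, -0.26 and -0.13 in the same settings. In regenerated overloaded against normal muscle the median of -0.60 was -0.39, -0.38, -0.42, -0.47 and -0.37, and the 6 genes past 1.5-fold were 0, 0, 1, 1 and 0. The median of 0.06 for the overload difference of regenerated muscle less that of muscle without a regeneration label turned to -0.136, -0.141, -0.0841, -0.0250 and -0.144, with 8, 8, 8, 7 and 9 of the 10 below 0 in place of 3. Of all genes called at 1.5-fold in regenerated overloaded against normal muscle, 45.1% were lower, or 19.3% with the series table; in regenerated and overloaded against normal muscle 31.6% and 32.8% were lower, or 13.7% and 11.8%. The order of the 4 arrays held in 9 of the 10 genes, or 6 with quantile normalization, 5 with cyclic loess and 6 after centring on genes of like brightness. Normexp, the mean over probes, outer rows, outlier spots and the filter moved no median by more than 1 SD of a difference between single spots (0.0750). No paired analysis was possible because each group has 1 array.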
